A study of Mus musculus with 16 samples.

Results

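The genes described here are those named for proteins of the cytosolic ribosome. They were taken as the protein-coding genes of the count table whose symbol is Rpl or Rps followed by a number or by p0, p1, p2 or a, and 83 of the 54532 listed genes met this rule, 32 of the small (40S) and 51 of the large (60S) subunit. The rule used names only and no measured value. It leaves out 4 further ribosomal genes with other names, among them Rpl36al, and 6 matching names that are annotated as pseudogenes.

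Naive CD8+ T cells from spleens of C57BL/6J mice had gone through rounds of activation with anti-CD3/CD28 beads and IL-2 over 4 days, which yields cells that express TCF1, the transcription factor of stem-like T cells. All cells then spent 1 h with or without prostaglandin E2 (PGE2) at 100 ng/ml, followed by 4 h with IL-2 at 85 U/ml. The 4 groups were unstimulated untreated (IL-2 alone), unstimulated with PGE2, stimulated untreated (IL-2 and beads coated with anti-CD3 and anti-CD28, 1 bead per cell) and stimulated with PGE2, with 4 replicates in each. The unstimulated cells had therefore also received IL-2, and the cells are a culture model and were not taken from tumours. The sources used here do not say whether the replicates were separate mice or cultures, so p-values measure the spread between these samples, which may be technical.

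A ribosome carries a single copy of nearly every ribosomal protein, and the cell makes these proteins in matched amounts. Their mRNAs are among the most abundant and stable of a cell. Most of them begin with a cytidine and a run of pyrimidines, the terminal oligopyrimidine (TOP) motif, through which mTORC1 and the RNA-binding protein LARP1 set how much of the mRNA is translated. T cells leaving rest are known to make ribosomes in large amounts, a step that starts in the nucleolus with rRNA. RNA-seq measures the mRNA level and not its translation, and in bulk samples fewer cells of a type and less RNA per cell cannot be told apart.

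Total counts per sample ran from 22678254 to 42950763. The markers of CD8+ T cells were present throughout, with Cd8a at 725 CPM or more in every sample. Tcf7, which encodes TCF1, was at 970 to 1479 CPM in unstimulated untreated cells and at 997 to 1568 CPM in unstimulated cells with PGE2. It was lower in stimulated cells, at 267 to 309 CPM without and 326 to 473 CPM with PGE2. CPM is the count relative to the library's total after scaling by TMM factors, which set the bulk of genes equal between libraries, and serves to compare 1 gene across samples. The marker values given here are relative to the total alone, without these factors. Ncr1 of NK cells and the globin genes Hbb-bs and Hbb-bt were at 0 in all samples, and 4 B cell markers summed to at most 6.85 CPM. Eomes, also listed as an NK marker, was at 5.94 to 157 CPM. Of the CD4 T cell markers, Cd4 was at most at 2.03 CPM, Zbtb7b at 9.08 to 37.3 CPM and Foxp3 at 2.88 to 9.23 CPM. Cd68, a myeloid marker, was at 2.61 to 6.73 CPM. What these levels say about other cells was not tested. Replicate 1 of the unstimulated untreated cells stood apart in the balance of both subunits, and values that it moved past a threshold or across 0 are given without it as well.

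The family as a whole took a nearly constant part of the mRNA. The 83 genes held 11.1, 10.1, 10.9 and 10.2% of the counts in replicates 1 to 4 of unstimulated untreated cells, and 9.74, 10.1, 10.7 and 10.2% in unstimulated cells with PGE2. They held 10.6, 9.61, 10.8 and 10.1% in stimulated untreated cells, and 9.85, 9.50, 10.4 and 10.6% in stimulated cells with PGE2. The 4 groups overlapped, and their means of 10.6% ± 0.520, 10.2% ± 0.379, 10.3% ± 0.541 and 10.1% ± 0.495 (SD, n = 4 each) lay within about 1 SD of each other. Genes of the large subunit had 1.21 to 1.32 times the counts of those of the small subunit. The lowest ratio, 1.211, was that of unstimulated untreated replicate 1, against 1.28 to 1.29 in the other 3 samples of its group.

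**Figure D1:**
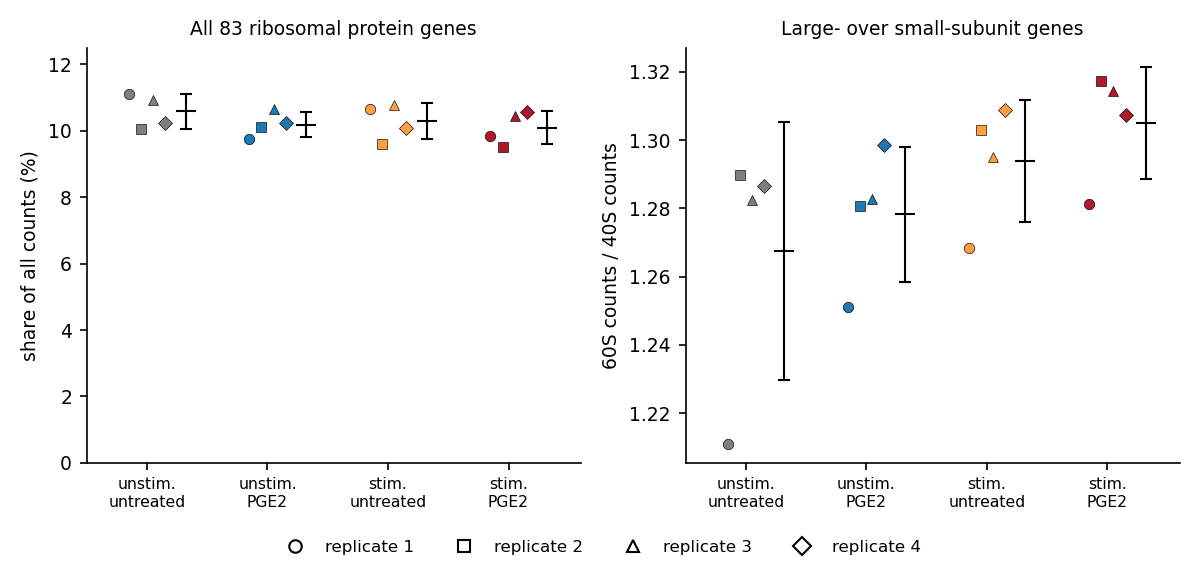
Left, share of all counts (%) held by the 83 ribosomal protein genes in each of the 16 samples; right, ratio of counts on large-subunit to small-subunit genes (axis not from 0). Symbols are replicates 1 to 4, and the bars beside them give the mean ± SD of each group; shares range from 9.50 to 11.1% with overlapping groups, and 1 unstimulated untreated sample lies low in the ratio at 1.211.

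Levels were compared between members on the FPKM scale, which divides by gene length and library total, and ran from 0.0339 FPKM for Rpl3l to 4654 for Rplp1. The 5 highest members by mean FPKM over the 16 samples were Rplp1 (4654 FPKM), Rplp0 (2910), Rps15 (2319), Rps3a1 (2082) and Rpl36 (1843). The length counts the annotated exon bases of a gene, 383 for Rpl36 and 499 for Rplp1 against 2072 for Rplp2, so the order depends on annotation. By CPM, which does not divide by length, Rplp0 (5063 CPM), Rpsa (4318) and Rpl4 (3499) were highest, and Rpl36 had 740. Rplp0 and Rplp1, with Rplp2 (406 FPKM), form the stalk of the large subunit that recruits the translational GTPases. Rpsa, a small-subunit protein also known as the laminin receptor, stood at 1298 FPKM, and Rps6, the substrate of the S6 kinases downstream of mTORC1, at 1214. The levels fell gradually down to rank 75 of 82, Rpl21 at 112 FPKM, and the last 7 lay at 45.2 FPKM or below.

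The low end of this order held the paralogues, which are genes related to another member and not in each case a second gene for the same ribosomal protein. Rps27l had 166 FPKM, Rpl22l1 45.2 and Rpl7l1 37.3, against 865, 247 and 725 FPKM for Rps27, Rpl22 and Rpl7. Rpl39l, known mainly from male germ cells, was at the edge of detection with 14 to 34 counts per sample and a mean of 0.712 CPM, and it passed in no comparison. Rpl3l, the paralogue of Rpl3 in striated muscle, had 0 to 7 counts per sample. Rpl10l, the paralogue of Rpl10 in testis, had 0 counts in each of the 16 samples, which allows up to 3 counts or 0.132 CPM in the shallowest one by counting error alone. Rpl10l and Rpl3l were too low to be tested, so 81 of the 83 members entered each comparison, Rpl39l among them.

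**Figure D2:**
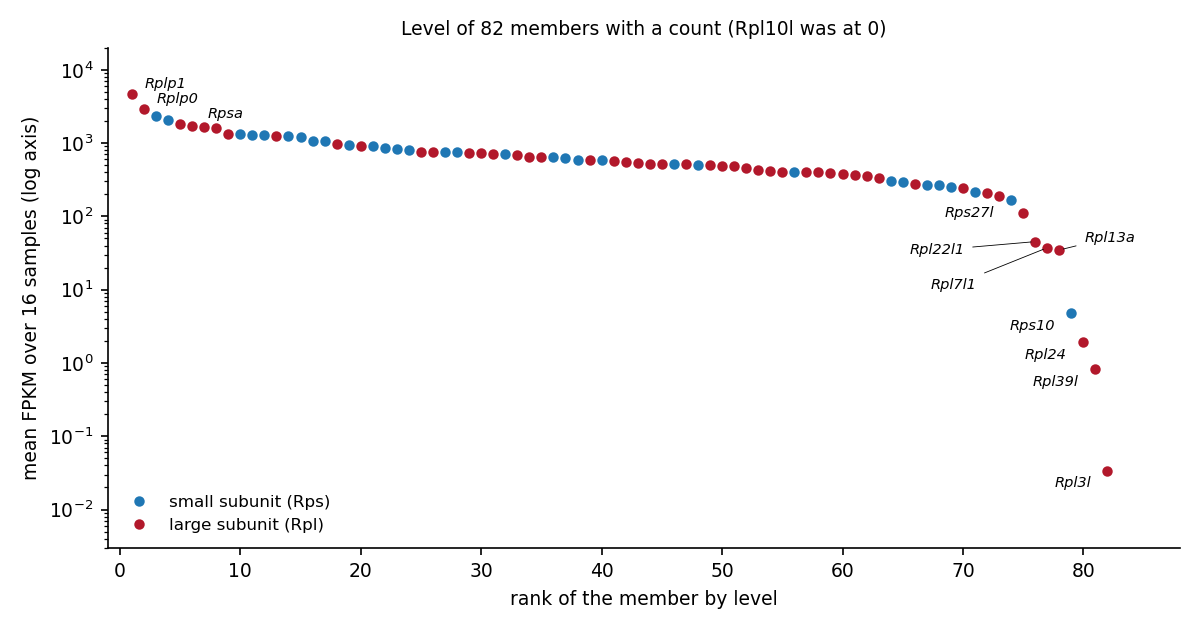
Mean FPKM over the 16 samples (log axis) of the 82 members with a count, ranked from highest to lowest and coloured by subunit. Rplp1 leads at 4654 FPKM; the paralogues Rps27l, Rpl22l1, Rpl7l1, Rpl39l and Rpl3l lie at the low end together with Rpl13a, Rps10 and Rpl24, whose counts are uncertain.

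For 3 members an overlap with another gene makes the counts themselves uncertain. Rps10, Rpl24 and Rpl13a had a mean of 341, 60.1 and 2326 counts per sample, while Rps6, for comparison, had 61030. Each of the 3 shares exon bases on the same strand with another annotated gene that had 0 counts in every sample. Rps10 shared 20.55% of its exon bases with RPS10-NUDT3, Rpl24 shared 46.99% with Gm28037, and Rpl13a shared 29.4% with Gm45713. Reads on bases of 2 genes can be left uncounted by counting programs, depending on options that are not given in the sources used here, and the part of this in the low counts was not tested. Of all 83 members, 15 share at least 10% of their exon bases with another gene. The table also lists 383 ribosomal protein pseudogenes, 214 with a count, which held 0.339 to 0.412% of the counts per sample. How reads that match both a member and a pseudogene were treated is not given. Counts of other members may therefore be uncertain as well, which was not tested.

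The members lie on 19 chromosomes, with at most 14 on 1 of them (chromosome 7), and 30 hold a gene of a small nucleolar RNA within their bounds. The pyrimidine run that the TOP motif needs was looked for at their starts. RefSeq promoters (build GRCm38.p6) were at hand for 63 of the 83 members. In a window of 30 bases, 12 before the annotated start and 18 from it on, the longest run of C and T had a median of 7 bases in members and 5 in all 27025 genes of that table. A run of at least 7 bases was found in 33 members (52.4%) and in 20.7% of all genes. The letters CGGAAG, the core bound by ETS factors, were found on either strand of the 300-base promoter in 41 members (65.1%) and in 17.0% of all genes. Window, run length and motif were picked after the sequences had been seen, and where a gene had several starts the one with the longest run was taken, for members and other genes alike. The following windows are shown because they belong to Rps6, which passed in no comparison, to Rplp2 of the stalk, to Rps27 with its paralogue, to the paralogue Rpl22l1, and to Rps10, Rpl24 and Rpl7l1, which moved most; capitals mark the longest run of C and T.
Rps6: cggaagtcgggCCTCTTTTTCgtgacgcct
Rplp2: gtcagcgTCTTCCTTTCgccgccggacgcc
Rps27: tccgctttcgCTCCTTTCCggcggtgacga
Rps27l: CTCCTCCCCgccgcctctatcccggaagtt
Rpl22l1: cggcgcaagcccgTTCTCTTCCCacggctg
Rps10: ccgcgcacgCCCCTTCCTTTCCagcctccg
Rpl24: aagCTgttgctaggaaacagactgggcgct
Rpl7l1: aggCTgcgcaagcgcagtagctgaagcacc
These lie at chr4:86857350-86857379 (minus strand) for Rps6, chr7:141447639-141447668 (plus) for Rplp2 and chr3:90213631-90213660 (minus) for Rps27. They lie at chr9:66946074-66946103 (plus) for Rps27l, chr3:28805496-28805525 (plus) for Rpl22l1 and chr17:27635227-27635256 (minus) for Rps10. Those of Rpl24 and Rpl7l1 lie at chr16:55966263-55966292 (plus) and chr17:46782639-46782668 (minus). Each runs from upstream sequence into the first bases of the transcript. Rps6, Rplp2, Rps27, Rps27l, Rpl22l1 and Rps10 hold runs of 9 to 13 pyrimidines. Those of Rps6, Rplp2, Rps27 and Rps10 span the annotated start, and that of Rpl22l1 lies just after it. That of Rps27l lies wholly before the start, so it is not part of the annotated transcript. The longest run is 2 bases in Rpl7l1 and Rpl24, as also in Rps3 and Rps3a1, and no listed member had a shorter one.

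Most members barely varied between replicates. The SD of log2 CPM within groups had a median of 0.11 over the 81 tested members and 0.19 over all 15096 genes tested. Counting error widens this SD for genes with few counts, and members were not compared with genes of like level. Rpl39l (0.42), Rps27a (0.35), Rpl24 (0.34), Rps10 (0.31) and Rpl22l1 (0.27) varied most, and Rpl4 (0.04) least. Rps27a, which encodes a fusion of ubiquitin with a small-subunit protein, ranged from 490 to 1122 CPM within the unstimulated cells with PGE2.

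The first question was what PGE2 does to these transcripts in cells without beads. Of 81 members, 3 fell and none rose (edgeR quasi-likelihood test, p adjusted by Benjamini-Hochberg over all genes tested and below 0.05), while 15.5% of all 14505 tested genes fell and 12.9% rose, a larger share in both directions. Without adjustment, 9 members fell at p below 0.05 and none rose; DESeq2 called 5 lower and none higher. The 3 members were the paralogues Rps27l and Rpl7l1, and Rps10. None of them changed by 2-fold. Over all 81 members the median log2 fold change was -0.08 and 75 of 81 values lay below 0, beside a median of -0.001 over all genes. Without unstimulated untreated replicate 1, the same number of members fell and the median of the members was -0.04.

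Rps27l (ENSMUSG00000036781, chr9:66946086-66949516, plus strand), the p53-induced paralogue of Rps27, fell most. It stood at 143, 117, 127 and 144 CPM in the 4 unstimulated untreated samples and at 84.6, 76.3, 80.6 and 90.7 CPM with PGE2. Every PGE2 sample was below every untreated one, a log2 fold change of -0.66 ± 0.08 (SE, adjusted p = 0.000116). Rpl7l1 (ENSMUSG00000063888, chr17:46773907-46782672, minus strand) is related to Rpl7, and its counterpart in yeast serves the assembly of the large subunit. It was at 87.2, 85.1, 72.0 and 90.0 CPM without and 57.3, 56.2, 50.9 and 60.7 CPM with PGE2. Again the groups did not overlap (log2 fold change -0.55 ± 0.08, adjusted p = 0.000301). Both calls held in each of the 12 alternatives run for single genes, which were RLE factors, summed counts, DESeq2, the replicate block and each of 8 samples left out. Rps10 (ENSMUSG00000052146, chr17:27630418-27636669, minus strand), at 7.67, 7.86, 7.35 and 5.69 CPM without and 5.83, 5.10, 3.31 and 4.48 CPM with PGE2, fell by 0.60 ± 0.17 on the log2 scale (adjusted p = 0.0214). Its groups overlapped. The call was lost without unstimulated untreated replicate 2 (adjusted p = 0.0791) or 3 (0.0534) and without PGE2 replicate 3 (0.0505).

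The members that make up the bulk of the family moved far less. Rplp0 was at 5006 ± 256 CPM without and 4974 ± 165 CPM with PGE2 (SD, n = 4), a log2 fold change of 0.01 ± 0.06. Rps6 was at 2050 ± 133 and 1930 ± 131 CPM (-0.07 ± 0.07), and Rpsa at 4269 ± 114 and 4148 ± 303 CPM (-0.02 ± 0.08). None of these passed the test, and the largest size among the members that did not was 0.48, for Rpl24 (adjusted p = 0.241). Samples with the same replicate number deviated from their group means together in this comparison. With the replicate number as a block, 21 members fell and none rose, by 0.11 to 0.65 on the log2 scale, while 24.2% of all genes fell. The 3 members called without the block were among the 21.

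**Figure D3:**
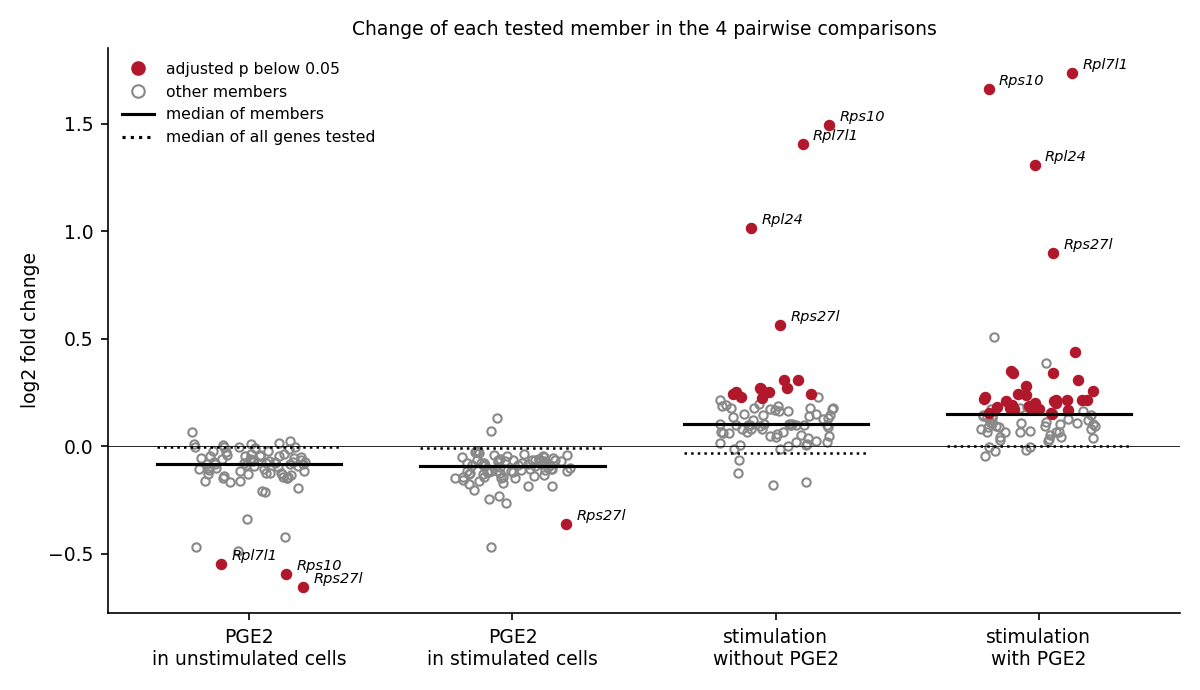
Log2 fold change (edgeR, scaled by TMM) of each of the 81 tested members in the 4 pairwise comparisons; red points passed an adjusted p of 0.05, solid lines are the medians of the members and dotted lines the medians of all genes tested. Medians were -0.08 and -0.09 with PGE2 and 0.10 and 0.15 on stimulation. With summed counts alone the stimulation medians were -0.047 without and 0.0021 with PGE2, and with upper-quartile factors 0.0075 and 0.026.

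PGE2 was next compared in stimulated cells. Of 81 members, 1 fell and none rose, while 3.8% of all 13922 tested genes fell and 6.04% rose, again a smaller share of members than of genes at large. Without adjustment 6 members fell at p below 0.05 and none rose, and DESeq2 called 3 lower and none higher. The members' median was -0.09, against -0.006 over all genes, and 79 of 81 values lay below 0. With summed counts alone the members' median was -0.03 and that of all genes 0.05. No member changed by 2-fold. The PGE2 comparisons share no library with each other, while each shares 1 of its groups with each stimulation comparison.

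The member that fell was again Rps27l. It stood at 218, 184, 198 and 192 CPM in stimulated untreated cells and at 168, 158, 147 and 140 CPM with PGE2, without overlap (log2 fold change -0.36 ± 0.08, adjusted p = 0.0180). The call was lost without stimulated untreated replicate 1 (adjusted p = 0.0606) or 3 (0.0529) and without stimulated PGE2 replicate 3 (0.0666), and the log2 fold change then lay between -0.30 and -0.36. Rpl7l1 was at 262, 232, 207 and 190 CPM without and 224, 211, 160 and 145 CPM with PGE2. Its groups overlapped and it did not pass (-0.26 ± 0.15, adjusted p = 0.276). Within each replicate number the PGE2 sample was the lower one. With the block, Rpl7l1 fell (-0.27 ± 0.05, adjusted p = 0.00199), as did Rps10 (-0.49 ± 0.08, adjusted p = 0.000910) and Rpl22l1 (-0.17 ± 0.05, adjusted p = 0.0140). In all, 14 members fell and none rose with the block, while 20.7% of all genes fell, and Rps27l was among the 14. The same-numbered samples deviated together here as well.

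Restimulation through CD3 and CD28 was compared next, first without PGE2. Here 15 of 81 members rose and none fell, while 31.7% of all 14205 tested genes rose and 34.8% fell, a larger share in both directions. Without adjustment 20 members rose and none fell; DESeq2 called 28 higher and none lower. The median of the members was 0.10 and that of all genes -0.03. Of the 15, 10 were large-subunit genes among 49 tested and 5 small-subunit genes among 32. Without unstimulated untreated replicate 1, 21 members rose and the median was 0.16. Short protein-coding genes outside the family (below 1000 bases) took 1.30 to 1.41% of counts in unstimulated and 1.46 to 1.72% in stimulated untreated cells, and their part in the result was not tested.

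Only 3 members rose by 2-fold, Rps10, Rpl7l1 and Rpl24. Rpl7l1 had 72.0 to 90.0 CPM in unstimulated and 190 to 262 CPM in stimulated untreated cells, with the values of each sample given above. The groups were far apart (log2 fold change 1.41 ± 0.11, adjusted p = 2.48e-07). Rps10 rose from 7.67, 7.86, 7.35 and 5.69 CPM to 23.5, 22.3, 18.5 and 16.7 CPM (1.495 ± 0.14, adjusted p = 1.43e-06). Rpl24 (ENSMUSG00000098274, chr16:55966275-55971435, plus strand), which encodes a large-subunit protein that reaches across to the small subunit, rose from 1.59, 1.498, 1.07 and 1.87 CPM to 3.26, 2.72, 2.95 and 3.34 CPM (1.02 ± 0.20, adjusted p = 0.000559). The last 2 rest on the uncertain counts described above. Rps27l rose by less, from a mean of 133 ± 13.2 to 198 ± 14.4 CPM (SD, n = 4 each), without overlap (0.56 ± 0.09, adjusted p = 7.85e-05). These 4 members passed in each of the 12 alternatives run for single genes.

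The other 11 members that rose did so by 0.22 to 0.31 on the log2 scale. Among them, Rpl10a was at 1208 CPM on average in unstimulated and 1509 CPM in stimulated untreated cells (0.31 ± 0.08, adjusted p = 0.00633). Rpl36 passed the test (0.27 ± 0.10, adjusted p = 0.0275), although its groups overlapped and the call was lost in 4 of the 8 fits that left out 1 sample. The stalk gene Rplp0 (0.04 ± 0.08), Rps6 (0.02 ± 0.08) and Rpsa (0.06 ± 0.08) did not pass. Rplp2 (0.19 ± 0.10, adjusted p = 0.105) passed with the block (adjusted p = 0.00402) and without unstimulated untreated replicate 1 (0.26, adjusted p = 0.0253). Same-numbered samples deviated together, and with the block 37 members rose and none fell, the first 15 among them, while 34.8% of all genes rose.

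The direction of these small changes depends on how libraries are scaled to each other. The fits used TMM factors, which assume that most genes do not differ. With the counts scaled to their sum alone, the median of all genes moved to -0.18 and that of the members to -0.047, with 4 members higher and 1 lower. With upper-quartile factors the median of the members was 0.0075 and 8 rose. The shares of all genes called under these scalings were not computed. The distance of the members from the median of all genes was 0.13 to 0.14 under each of the 5 scalings. A change of scaling shifts all genes of a library alike, so this distance could hardly differ between them. The 4 members that were called under all 5 were Rpl7l1, Rps27l, Rps10 and Rpl24.

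In the presence of PGE2, 35 of 81 members rose on stimulation and none fell, while 32.5% of all 14507 tested genes rose and 31.7% fell. The members that rose were a larger share than genes at large, and none fell, where genes at large fell nearly as often as they rose. Without adjustment 41 rose and none fell, and DESeq2 called 38 higher and none lower. The median of the members was 0.15, against 0.002 over all genes, with 76 of 81 values above 0. Of the 35, 24 were large-subunit and 11 small-subunit genes. Most calls lie close to the threshold. Leaving out 1 sample left 14 to 31 members, with 14 without unstimulated PGE2 replicate 1 or 3, 15 without its replicate 2 or without stimulated PGE2 replicate 3, 18 without stimulated PGE2 replicate 2 and 21 without its replicate 1. With no filter on low counts 9 rose, with upper-quartile factors 6, and with summed counts alone 4, when the median of the members was 0.0021 and that of all genes -0.15. Shares of all genes called were not computed for these fits or for those that left out 1 sample. The distance from all genes was 0.15 under each of the 5 scalings, which again could hardly differ between them.

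The same 4 genes led. Rpl7l1 rose from 51 to 61 CPM to 145 to 224 CPM, a log2 fold change of 1.73 ± 0.14 (adjusted p = 3.15e-06). Rps10 rose from 5.83, 5.10, 3.31 and 4.48 CPM to 18.7, 17.3, 11.8 and 10.4 CPM (1.66 ± 0.22, adjusted p = 7.84e-05). Rpl24 rose from 1.05, 1.29, 0.551 and 1.32 CPM to 2.62, 2.64, 2.17 and 2.99 CPM (1.31 ± 0.26, adjusted p = 0.00113). Rps27l rose from 83.04 ± 6.11 to 153 ± 12.3 CPM (SD, n = 4 each; 0.90 ± 0.09, adjusted p = 7.61e-06). For none of these 4 did the groups overlap, and each passed in all 12 alternatives. Among the other 31, the log2 fold changes lay between 0.15 and 0.44. Rpl39l, with few counts, had a larger value and did not pass (0.51 ± 0.31, adjusted p = 0.167). Rplp2 of the stalk rose from 785 ± 39.1 to 903 ± 40.2 CPM (0.22 ± 0.07, adjusted p = 0.0125), and Rpl7 from 1837 ± 151 to 2133 ± 47.9 CPM (0.23 ± 0.08, adjusted p = 0.0239). The call for Rplp2 was lost with summed counts and without unstimulated PGE2 replicate 2 or 3. That for Rpl7 was lost with summed counts (0.08) and without unstimulated PGE2 replicate 1 (0.13) or 2 (0.22) or stimulated PGE2 replicate 2 (0.21) or 3 (0.18). Rplp0 (0.04 ± 0.06), Rplp1 (0.03 ± 0.07), Rpsa (0.08 ± 0.08) and Rps6 (0.07 ± 0.07) did not pass.

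Paralogues and the members they resemble did not move by the same amount. On stimulation without PGE2, Rpl7l1 changed by 1.41 and Rpl7 by 0.16 ± 0.07 (adjusted p = 0.0687), from 1975 ± 27.4 to 2232 ± 139 CPM. Rps27l changed by 0.56 while Rps27 had -0.12 ± 0.17 (adjusted p = 0.539), at 1501, 864, 917 and 912 CPM in unstimulated and 1182, 787, 967 and 940 CPM in stimulated cells. Without unstimulated untreated replicate 1 its value was 0.09 (adjusted p = 0.512), and that for PGE2 in unstimulated cells went from -0.21 to 0.006. Differences between 2 genes were not tested. In the main fits, Rpl22l1 did not pass in any of the 4 pairwise comparisons, nor did Rpl22 or Rps27. DESeq2 called Rpl22 higher on stimulation with PGE2 (0.14, adjusted p = 0.0315). With the block, Rpl22l1 rose on stimulation without PGE2 (0.23 ± 0.06, adjusted p = 0.00857), as did Rpl7 (0.16 ± 0.05, adjusted p = 0.0132). DESeq2 (0.20, adjusted p = 0.00842) and edgeR with RLE factors (0.20, adjusted p = 0.0376) also called Rpl7 there. Rpl22 (-0.14 ± 0.05, adjusted p = 0.0191) and Rps27 (-0.18 ± 0.06, adjusted p = 0.0219) fell with PGE2 in unstimulated cells with the block. Rpl22l1 was at 128, 74.5, 77.04 and 82.3 CPM in the unstimulated untreated cells, so that replicate 1 alone set the spread of this group. Without that sample Rpl22l1 rose on stimulation without PGE2 (0.42, adjusted p = 0.00371). In each of the 4 groups replicate 1 had the highest level of Rpl22l1, Rps27 and Rpl39.

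**Figure D4:**
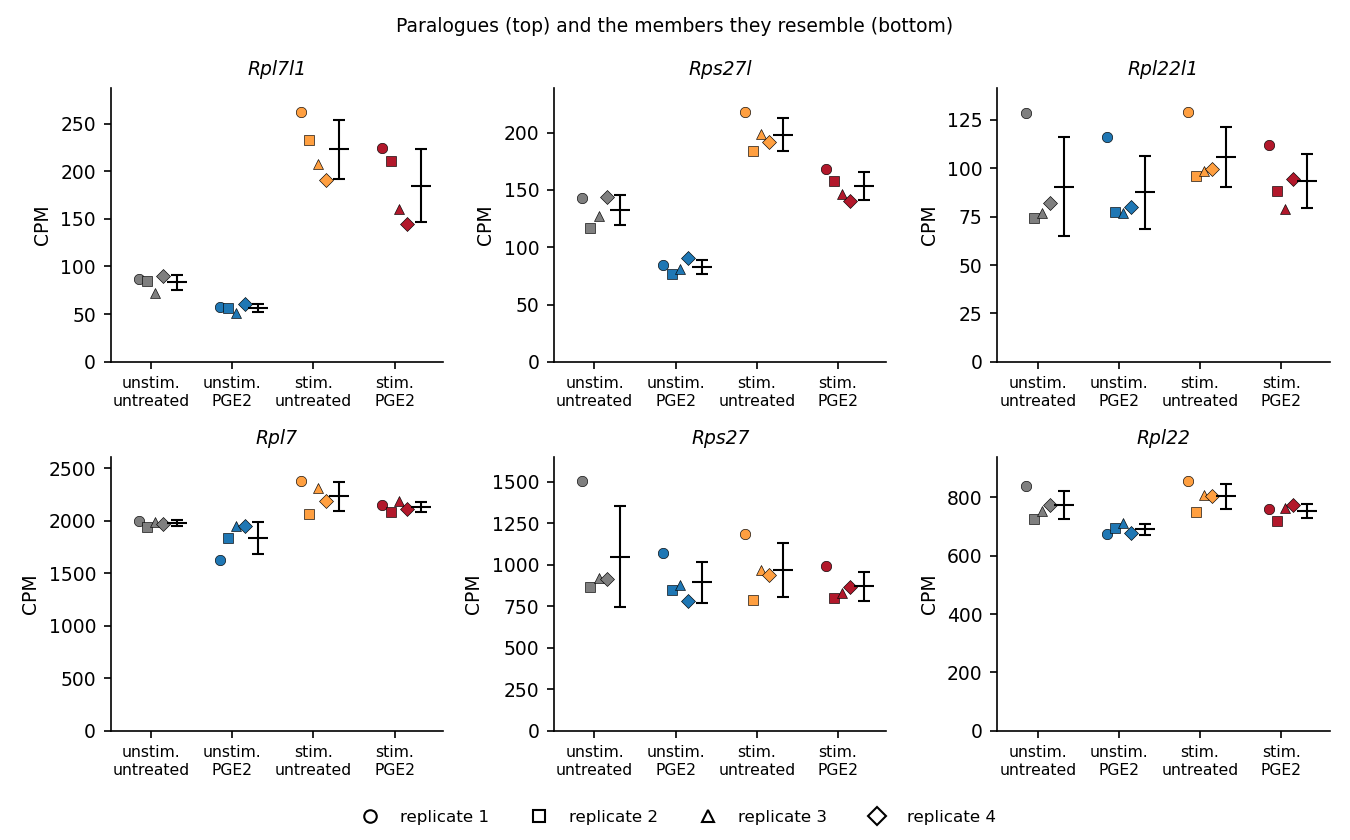
CPM of Rpl7l1, Rps27l and Rpl22l1 (top) and of Rpl7, Rps27 and Rpl22 (bottom) in the 16 samples, with symbols for replicates 1 to 4 and the mean ± SD of each group beside them. Rpl7l1 and Rps27l are higher in both stimulated groups and lower in unstimulated cells with PGE2, whereas Rpl22l1 and Rps27 differ mainly by replicate 1.

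Whether PGE2 acted differently in stimulated and unstimulated cells was tested with an interaction over all 16 samples. No member passed in either direction, while 0.517% of all 15096 genes were higher and 0.232% lower. Without adjustment 1 member, Rps27l, was above the threshold, and DESeq2 and the fit with the block called none. For Rps27l, PGE2 lowered the level by 0.31 ± 0.12 less on the log2 scale in stimulated cells (adjusted p = 0.370), and for Rpl7l1 by 0.30 ± 0.18 less (adjusted p = 0.703). With 4 samples a group these values do not show that the effects were alike.

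To see which members moved relative to the rest of the family, the fits were repeated with all libraries scaled so that the mean log2 level of the members was equal. Such a fit does not depend on the library scaling. The mean includes the members that moved most, among them Rps10 and Rpl24 with uncertain counts, which shifts the others to its opposite side. With PGE2 in unstimulated cells, 2 of 81 members stood apart, against 27.3% of all genes, and both were lower, Rps27l (-0.55 ± 0.09, adjusted p = 0.000412) and Rpl7l1 (-0.44 ± 0.10, adjusted p = 0.00390). With the block 9 stood apart. With PGE2 in stimulated cells no member stood apart, against 9.27% of all genes; 1 was lower at an unadjusted p below 0.05, and 3 stood apart with the block. DESeq2 was not run on this scaling, and the share of all genes that stood apart with the block was not computed.

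On stimulation without PGE2, 7 members stood apart from the family, against 63.4% of all genes, and 26 with the block (share of all genes not computed). Those above it were Rps10, Rpl7l1, Rpl24 and Rps27l, at 1.32 ± 0.14, 1.23 ± 0.11, 0.84 ± 0.23 and 0.40 ± 0.09. Those below it were Rpl17 (-0.34 ± 0.13, adjusted p = 0.0306), Rpl39 (-0.33 ± 0.13, adjusted p = 0.0359) and Rps15a (-0.22 ± 0.08, adjusted p = 0.0234). Without unstimulated untreated replicate 1, in which Rpl39 was at 1179 CPM against 628 to 719 in the other 3, 5 members stood apart, the same 4 above and Rpl17 below (-0.44, adjusted p = 0.00372). Rpl39 (-0.16, adjusted p = 0.150) and Rps15a (-0.16, adjusted p = 0.0744) then did not pass. With PGE2, 15 members stood apart on stimulation, against 65.5% of all genes, the same 4 above the family and 11 below it, with Rpl17 (-0.26 ± 0.10, adjusted p = 0.0444) and Rpl39 (-0.24 ± 0.09, adjusted p = 0.0348) again the lowest. This count fell to 7 without stimulated PGE2 replicate 2, to 8 without unstimulated PGE2 replicate 2 or 3, and to 9 without stimulated PGE2 replicate 4. It was also 7 when libraries were scaled to the median of the members instead of their mean. The mean holds the 4 risers themselves, so a place below it in part restates their rise. Rpl17 and Rpl39 encode large-subunit proteins that line the tunnel of the nascent peptide, and with TMM factors neither of them passed in any comparison. On stimulation without PGE2, Rpl39 had -0.18 with TMM factors and 0.06 without unstimulated untreated replicate 1.

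For the gene lists that follow, the shares of all genes that passed are those given above for each comparison. With the block 24.2% and 20.7% of all genes fell, and 23.6% and 19.1% rose, with PGE2 in unstimulated and stimulated cells. On stimulation without PGE2, 34.8% rose and 37.5% fell with the block, and in the interaction 1.79% were higher and 0.914% lower. The genes that build ribosomes had larger changes than most genes for the proteins that form them. Of 24 genes of rRNA synthesis and processing, 22 fell with PGE2 in unstimulated cells (median -1.02) and none rose. Dkc1, the pseudouridine synthase of rRNA, fell by 1.48 ± 0.09 on the log2 scale, and Rrp12 by 1.38 ± 0.09. On stimulation 23 rose and 1 fell, with a median of 1.74 without and 2.60 with PGE2, and Polr1b, a subunit of RNA polymerase I, rose by 2.63 ± 0.11 and 4.10 ± 0.23. In stimulated cells none of the 24 passed with PGE2 (median -0.33; 6 lower at an unadjusted p below 0.05, 1 by DESeq2 and 22 with the block). In the interaction 5 passed (9 by DESeq2 and 10 with the block), all higher, among them Polr1b (1.44 ± 0.25, adjusted p = 0.00955) and the nucleolar GTPase gene Gnl3 (1.30 ± 0.23, adjusted p = 0.0129).

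Chaperones that carry single ribosomal proteins or late pre-ribosomes followed the same order. Of 9 tested, 6 fell and 1 rose with PGE2 in unstimulated cells, none passed in stimulated cells (1 higher and 1 lower at an unadjusted p below 0.05, none by DESeq2, 1 higher and 7 lower with the block), and 7 rose in both stimulation comparisons. Grwd1, the chaperone of Rpl3, rose by 2.59 ± 0.16 without PGE2, where Rpl3 itself had 0.12 ± 0.07 (adjusted p = 0.141, and 0.0345 with the block). Bysl, of late small-subunit assembly, rose by 2.16 ± 0.13. Of 77 mitochondrial ribosomal protein genes, which serve a separate ribosome, 45 fell with PGE2 in unstimulated and 4 in stimulated cells, with medians of -0.24 and -0.21, and none rose. In stimulated cells 35 were lower at an unadjusted p below 0.05, 11 by DESeq2 and 50 with the block, which gave 58 lower and 2 higher in unstimulated cells. On stimulation 60 rose and 6 fell without PGE2 and 59 rose and 4 fell with it.

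Other mRNAs of the TOP class lay closer to the ribosomal proteins. Of 18 such genes for translation factors and their partners, 7 fell with PGE2 in unstimulated cells (median -0.14) and none passed in stimulated cells (median -0.13; 4 lower at an unadjusted p below 0.05, 2 by DESeq2). With the block 11 and 10 fell and 1 rose in each. On stimulation 11 rose and none fell without PGE2 (median 0.22; 13 and 2 with the block). With PGE2, 12 rose and none fell (median 0.24), while DESeq2 and the unadjusted test each gave 1 lower. Eef1d, an exchange factor of elongation, fell by 0.25 ± 0.05 with PGE2 in unstimulated cells and rose by 0.69 ± 0.08 on stimulation without it. With PGE2 in stimulated cells Eef1d did not pass (-0.26 ± 0.11, adjusted p = 0.156). Of 12 genes that control TOP translation, 3 rose and 4 fell with PGE2 in unstimulated cells and 2 rose in stimulated cells (3 rose and 4 fell with the block), with 6 higher and 4 lower on stimulation without PGE2 and 5 in each direction with it. On stimulation, 31.7% of all genes were higher and 34.8% lower without PGE2, and 32.5% and 31.7% with it. Whether the counts of these 12 genes differ from such shares was not tested. Larp1, which binds the TOP motif, fell by 0.59 ± 0.08 with PGE2 in unstimulated cells and rose by 1.53 ± 0.11 on stimulation without PGE2. With PGE2 in stimulated cells Larp1 did not pass. Rptor, the substrate-binding subunit of mTORC1, rose by 0.92 ± 0.13 with PGE2 in unstimulated cells. Of the 4 ribosomal genes outside the name rule, 2 rose on stimulation without PGE2, and Rpl36al rose by 1.29 ± 0.18. Rpl36al fell by 0.70 ± 0.20 with PGE2 in unstimulated cells (adjusted p = 0.0232).

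**Figure D5:**
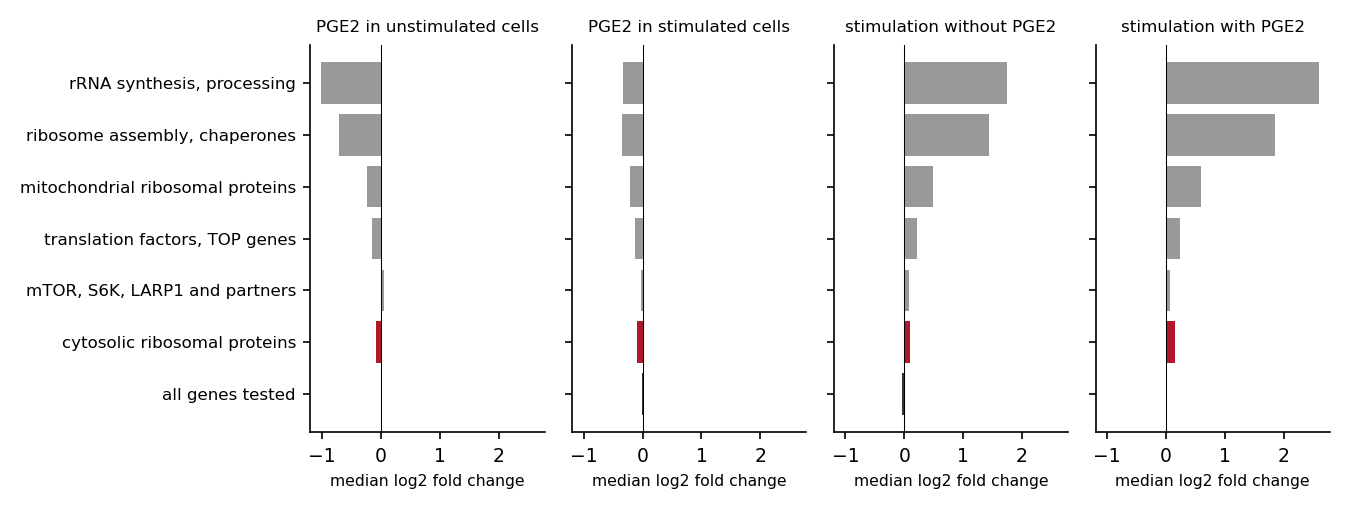
Median log2 fold change of 5 gene lists (grey), of the 81 tested cytosolic ribosomal protein genes (red) and of all genes tested (black) in the 4 pairwise comparisons, with bars from 0. The median of the rRNA synthesis and processing genes runs from -1.02 to 2.60, while that of the cytosolic ribosomal protein genes stays between -0.09 and 0.15.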

How the data were processed

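The authors prepared poly(A)-enriched libraries, aligned reads to GRCm38 with HISAT2 2.0.5 and assigned them to genes with featureCounts 1.5.0-p3. Annotation release, strand use and treatment of reads with several hits are not given in the sources used here. The deposited raw counts were tested with edgeR 4.0.16 (TMM, filterByExpr with a minimum count of 10, glmQLFit, glmQLFTest, two-sided, Benjamini-Hochberg over all genes tested) in fits of 8 samples, or 16 for the interaction, without covariates. The FPKM values deposited by the authors, which equal counts per length and total times 1 factor per sample, served only for levels and for limma 3.58.1 as an alternative. DESeq2 1.42.0 was another alternative. Shares of all genes were taken only from the main edgeR fits, the main fits scaled to the family and the TMM fits with the block, all with adjusted p. None therefore stand beside counts by DESeq2, limma or unadjusted p, or with other factors or filters. The same holds for the fit of all 16 samples and the fits that left out 1 sample. Such counts cannot be set against genes at large. CPM carries TMM factors of all 16 samples. Fold changes are log2 with SE. All counts of members called are without a fold threshold. The fits were tested on simulated data with changes of 2-fold and with smaller ones. Few of the genes given a smaller change were called, and the limit on false calls was not always met there. The limit was then applied to changes of 2-fold only. Calls of smaller changes, most of those here, are therefore less secure, and members that were not called may have changed by such amounts.

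The members and lists were chosen with earlier results of these data known. Named by rule were the 3 largest rises and falls per comparison, the 2 highest and lowest relative to the family, the 5 highest in FPKM, members below 1 CPM, paralogues with their partners, and Rplp0, Rplp1, Rplp2, Rpsa and Rps6. Rps27a, Rpl13a, Rpl4, Rpl10a and Rps15a were named after their values had been seen. Other lists gave at most 3 genes per comparison. Same-numbered samples were taken as paired where the correlation of their deviations from group means exceeded 0.1 in every pair, which held for both PGE2 comparisons (0.151 to 0.495) and stimulation without PGE2 (0.119 to 0.406); this pairing comes from the data, as no source gives it. Coordinates are of GRCm38. Some items are not reported here.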

Additional observations from a re-analysis of the deposited data

Results flagged for a closer look

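Of 96 groups of 4 samples examined, over the named members with at least 1 CPM and the shares of both subunits, 8 held 1 sample with a gap to the others above the 95% limit of Dixon's test, and chance gives about 1 in 20. Of these, 4 were in unstimulated untreated replicate 1, where Rpl39 was at 1179 CPM (the others 628 to 719), Rps27 at 1501 CPM (864 to 917), Rpl22l1 at 128 CPM (74.5 to 82.3) and the ratio of large- to small-subunit counts at 1.211 (1.28 to 1.29). Replicate 1 was also the one apart in unstimulated cells with PGE2 for Rpl39 at 831 CPM (645 to 654) and Rpl22l1 at 116 CPM (76.998 to 80.2), and in stimulated untreated cells for Rpl22l1 at 129 CPM (95.8 to 99.7). Rpl17 was at 888 CPM in stimulated PGE2 replicate 3 (733 to 756).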

How the results depend on the processing

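Calls of members rested on small changes and moved with the method, while no call of a single named member turned in direction under any alternative. Among the alternatives below, shares of all genes were computed only for the TMM fits with the block. The other counts cannot be set against genes at large. DESeq2 gave 5 and 3 members lower with PGE2 in unstimulated and stimulated cells and 28 higher on stimulation without PGE2. RLE factors gave 23, upper-quartile factors 8 and summed counts 4 higher and 1 lower for stimulation without PGE2, where the median of the members was 0.0075 with upper-quartile factors and turned to -0.047 with summed counts. With PGE2, upper-quartile factors gave 6 higher (median 0.026), summed counts 4 (median 0.0021), no filter 9 and at least 10 counts in every sample 21. The fit of all 16 samples gave 2 lower for PGE2 in stimulated cells and 30 higher on stimulation without PGE2. A fold change of at least 2 left 0 and 0 with PGE2 and 3 and 3 on stimulation. The interaction median turned from 0.01 to -0.0074 with RLE and -0.0072 with upper-quartile factors. The replicate block gave 21 and 14 lower with PGE2 and 37 and 43 higher on stimulation. Of all genes, 24.2% and 20.7% were then lower and 34.8% and 33.9% higher. The block gave 9, 3 and 26 members apart from the family for PGE2 in unstimulated cells, PGE2 in stimulated cells and stimulation without PGE2. For stimulation with PGE2, same-numbered correlations ran from 0.0489 to 0.288 and 3 of 4 numbers correlated best with their own. There the numbers were not taken as pairs, and all 35 members called without the block were called with it. Scaling to the median of the members left 7 apart on stimulation with PGE2. The share held by members was 18.5, 18.01, 17.7 and 17.5% of summed FPKM. Leaving out 1 sample gave 2 to 3 and 0 to 1 lower with PGE2, 10 to 21 and 14 to 31 higher on stimulation, none higher or lower in the interaction, and 2 to 3, 0 to 0, 5 to 9 and 7 to 15 apart from the family. Counting error limits only the low members; for the others the spread between replicates does, and a member that did not pass is not shown to be unchanged.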
